A study of Rattus norvegicus with 12 samples.

Results

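The genes described here are those of the growth hormone and insulin-like growth factor (IGF) axis of the liver: the receptors Ghr and Prlr, the hormone Igf1 and the binding proteins Igfbp1, Igfbp2 and Igfbp3. Their members were the probe sets to which the array's platform annotation gave 1 of these 6 symbols alone, which came to 19 of the 8740 probe sets tested. Ghr had 3 of them, Prlr 5, Igf1 5, Igfbp1 1, Igfbp2 3 and Igfbp3 2.

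Liver RNA was measured on 12 arrays, 3 for each of 4 diets, in male Sprague-Dawley rats that weighed 150 g at the start. All rats received a liquid diet through a stomach cannula for 21 days and were overfed by 17% of calories, at an age that the labels do not give. The diets were 70% corn oil, 70% olive oil, 5% corn oil and 5% olive oil, made equal in calories by changing the ratio of fat to carbohydrate, so that 70% and 5% fat also differ in carbohydrate. Each array held an RNA pool, and pools are numbered 1 to 3 in each diet. How many rats made up a pool is not stated, so p-values reflect only the variation among pools. No group without overfeeding was analysed here.

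Growth hormone binds Ghr on hepatocytes, and the kinase Jak2 and the transcription factor Stat5b carry the signal to Igf1 and other target genes. Prlr is a close relative of Ghr that binds prolactin and, in rat liver, is more abundant in females than in males. The IGF-binding proteins carry IGF-1 in blood: Igfbp3 forms the long-lived complex with IGF-1, and Igfbp1 is made by hepatocytes, lowered by insulin and raised by fasting and glucocorticoids. In rat liver Igfbp3 is made mainly by cells other than hepatocytes.

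Each value below is a log2 difference from the median of that probe set over the 12 arrays, as deposited, so levels cannot be compared between genes and absolute expression, that of liver markers included, cannot be read. Differences between diets came from limma with 1 mean per diet, are given with their standard error (SE, 3 pools per diet), and were called at an adjusted p below 0.05 over all 8740 probe sets. Folds are ratios derived from these log2 differences. In tissue RNA, fewer cells of a type and less RNA per cell cannot be told apart.

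The arrays of the oils differed in a measure of RNA quality. The 3'/5' index, which compares control probe sets for the 3' and the 5' ends of actin and GAPDH transcripts (log2, 3' minus 5'), lay between 0.162 and 1.502 in the 6 corn oil arrays and between -0.43 and -0.23 in the 6 olive oil arrays, a mean difference of 1.35 log2 (two-sided exact permutation test, p = 0.00216, adjusted over 10 tests 0.0108). Pool 2 of 70% corn oil had the lowest index of the corn oil arrays. The 9 spike-in control probe sets averaged 0.17 with 70% corn oil, -0.38 with 70% olive oil, 0.88 with 5% corn oil and -0.11 with 5% olive oil. They too differed by oil without overlap, by a mean of 0.774 (same permutation test, p = 0.00216, adjusted 0.0108). Control probe sets were centred on their medians as well, so index and spike-in values compare arrays with each other. Their sign and size give no absolute ratio or signal. In a fit with this index as covariate 0 of 8740 probe sets passed the limma test in either oil comparison, with 698 at an unadjusted p below 0.05 at 70% fat and 521 at 5% fat, so the oil differences of the 6 axis genes that passed are given below with their value in that fit too.

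Prlr rose with 70% fat in corn oil and in the mean over both oils. With corn oil, 4 of its 5 probe sets were higher at 70% than at 5% fat, by 1.69 to 3.50-fold, and these were the only calls among the 19 probe sets of the axis, where 2.11% of all probe sets passed and 1.30% of all were higher. The median difference was 0.20 over the 19 probe sets and -0.0075 over all. With olive oil the same 4 probe sets differed by 1.22 to 1.97-fold in the same direction and none passed. There 0 of the 19 passed by limma, where 0.435% of all probe sets did. An unadjusted p below 0.05 was reached by 4 of the 19 and by 8.46% of all. In the mean of both fat effects the 4 Prlr probe sets passed (2.28% of all probe sets did), and no other probe set of the axis did.

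Probe set M19304_at of Prlr read 1.90, 0.74 and 0.97 in pools 1, 2 and 3 of 70% corn oil, against -0.62, -0.53 and -0.66 with 5% corn oil. With olive oil it read 0.24, 0.03 and 0.33 at 70% fat, against -1.48, -0.51 and -0.03 at 5% fat. All 6 arrays at 70% fat thus lay above all 6 at 5% fat, and pool 3 of 5% olive oil was the closest to them. The difference was 1.81 ± 0.33 (SE) with corn oil (adjusted p = 0.0185), 0.87 ± 0.33 with olive oil (adjusted p = 0.446) and 1.34 ± 0.23 in the mean of both (adjusted p = 0.00979).

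Probe set M74152_s_at of Prlr gave 1.39, 0.28 and 1.21 with 70% corn oil, against -0.42, -0.60 and -0.80 with 5% corn oil. In the olive oil pools it gave 0.01, 0.39 and 0.55 at 70% fat, against -1.15, -0.81 and -0.01 at 5% fat. Here too all arrays at 70% fat were above all at 5% fat, which held for 2 of the 19 probe sets and for 0.572% of all probe sets. Its differences were 1.57 ± 0.30 with corn oil (adjusted p = 0.0243), 0.98 ± 0.30 with olive oil (adjusted p = 0.321) and 1.27 ± 0.22 in the mean (adjusted p = 0.00819).

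Probe set L48060_s_at of Prlr had 0.65, 0.19 and 0.66 in the 70% corn oil pools, against -0.73, -0.85 and -0.90 in the 5% corn oil pools. It had -0.02, 0.07 and 0.26 in the 70% olive oil pools, against -0.86, -0.39 and 0.02 in the 5% olive oil pools. The corn oil groups were apart, while pool 3 of 5% olive oil lay within the range of 70% olive oil. The differences were 1.33 ± 0.19 with corn oil (adjusted p = 0.00362), 0.51 ± 0.19 with olive oil (adjusted p = 0.441) and 0.92 ± 0.13 in the mean (adjusted p = 0.00311).

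Probe set M34083_at of Prlr moved least of the 4. It had 0.26, 0.20 and 0.66 with 70% corn oil, against -0.31, -0.36 and -0.48 with 5% corn oil. In the olive oil pools it had 0.10, 0.07 and -0.0016 at 70% fat, against -0.33, -0.37 and 0.0016 at 5% fat. The corn oil groups did not overlap and the olive oil groups met at the median. Its differences were 0.76 ± 0.13 (adjusted p = 0.0132), 0.29 ± 0.13 (adjusted p = 0.582) and 0.52 ± 0.09 in the mean (adjusted p = 0.0103).

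The fifth Prlr probe set, U34897mRNA_at, did not pass the test for fat. It stayed between -0.20 and 0.21 on all 12 arrays and differed by -0.17 ± 0.10 with corn oil (adjusted p = 0.395) and 0.07 ± 0.10 with olive oil (adjusted p = 0.945). Over the 12 arrays the other 4 correlated with each other at r = 0.818 to 0.943 and with this one at r = -0.219 to -0.05. Within the 6 corn oil arrays this one correlated with the 4 at -0.705 to -0.25, and within the 6 olive oil arrays at 0.605 to 0.922; these are probe sets of 1 gene on the same arrays, given as a description. Which transcript form each probe set reads was not determined. As 1 value per gene, the mean of all 5 probe sets, Prlr was 1.06 ± 0.18 higher at 70% fat with corn oil (limma over 4736 genes, adjusted p = 0.00956) and 0.54 ± 0.18 with olive oil (adjusted p = 0.316).

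**Figure D1:**
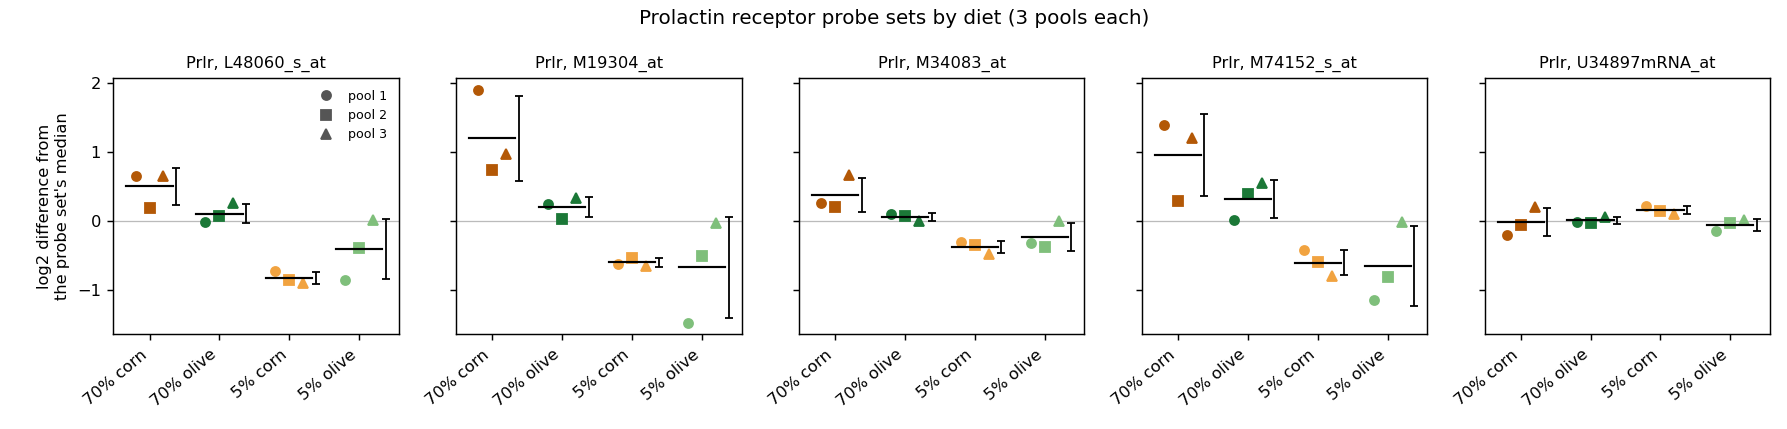
Values of the 5 Prlr probe sets (y axis, log2 difference from the probe set's median over 12 arrays) by diet, with a symbol per pool, a line at the mean and a bar of 1 SD for 3 pools. In 4 probe sets the 70% fat pools sit above the 5% fat pools with corn oil, and in M19304_at and M74152_s_at with both oils; U34897mRNA_at stays between -0.20 and 0.21.

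The fat effects of Prlr with corn oil exceeded those with olive oil by 0.47 to 0.93 log2 in the 4 probe sets, but the difference between the fat effects passed in none, with adjusted p between 0.341 and 0.612 and 95% intervals as wide as -0.08 to 1.95 for M19304_at. No probe set of the array passed that test: 0 of 8740 by limma, with 1028 at an unadjusted p below 0.05, of which 3 were of this axis. Pool 3 of 5% olive oil was the highest of its diet in each of the 4. Without it the fat effects with olive oil were 0.73 for L48060_s_at, 1.19 for M19304_at, 0.41 for M34083_at and 1.30 for M74152_s_at (adjusted p = 0.119 to 0.404).

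Array quality measures of the corn oil diets are given here beside the Prlr values. The index averaged 0.715 with 70% corn oil and 1.276 with 5% corn oil (two-sided exact permutation test, p = 0.2, adjusted 0.25), and the spike-in controls 0.174 and 0.879 (p = 0.1, adjusted 0.143; 0.1 is the smallest that 3 against 3 arrays allow). Neither difference passed. In the fit with the index, 3 of the 4 Prlr calls for fat with corn oil were kept: 1.53 for L48060_s_at (adjusted p = 0.0234), 0.93 for M34083_at (0.0313) and 2.03 for M74152_s_at (0.0338), while M19304_at had 2.07 (0.0775). With the spike-in controls as covariate the 4 differences were 0.83 to 1.89 and none passed, adjusted p = 0.421 to 0.762. A second quantile normalization gave 0.73 to 1.85 and also no call, adjusted p = 0.0571 to 0.179.

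Leaving out 1 array at a time ended no Prlr call of L48060_s_at or M34083_at. It ended that of M19304_at without pool 1 or pool 2 of 5% corn oil (adjusted p = 0.0695 and 0.0658) and that of M74152_s_at without these pools or without pool 3 of 70% corn oil (0.067, 0.0865 and 0.0631), with differences of 1.45 to 1.84 in these fits. In the mean of both fat effects all 4 calls were kept in each such fit.

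Markers of other cells were also compared between the fat levels, where 2.53% of all genes passed with corn oil. With corn oil 1 of 5 endothelial markers passed, Kdr, a receptor for vascular endothelial growth factor, at -0.65 ± 0.15 (adjusted p = 0.0441), and it passed in the mean of both oils at -0.56 ± 0.11 (adjusted p = 0.0136). The mean of the 5 lay between -0.12 and -0.04 with 70% corn oil and between -0.02 and 0.14 with 5% corn oil. By limma 0 of 7 hepatocyte, 0 of 8 macrophage, 0 of 8 stellate cell and fibroblast and 0 of 2 blood markers passed with corn oil. An unadjusted p below 0.05 was reached by 2 of each list and by 18.8% of all probe sets. Hbb, a hemoglobin chain, differed by -0.81 ± 0.22 (adjusted p = 0.0777). With olive oil 1 of 8 macrophage markers passed, where 0.549% of all genes did, the protease gene Ctss at -0.96 (adjusted p = 0.0164). Of the 8, 5 had an unadjusted p below 0.05, against 8.46% of all probe sets. The median difference of the list was -0.60, against 0.03 over all genes. The mean of the 8 lay between -0.39 and -0.17 with 70% olive oil and between 0.04 and 0.33 with 5% olive oil. The part of these cells in the Prlr values was not tested.

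Between the oils no Prlr probe set passed. At 70% fat M19304_at differed by 1.003 ± 0.33 (adjusted p = 0.0828), and the other 3 that changed with fat differed by 0.32 to 0.64 (adjusted p = 0.156 to 0.234). Without pool 2 of 70% corn oil, the lowest of its diet in M19304_at, M34083_at, L48060_s_at and M74152_s_at, 2 of them passed: M19304_at at 1.24 (adjusted p = 0.036) and M74152_s_at at 0.98 (adjusted p = 0.0329). At 5% fat the corn minus olive oil differences of the 5 lay between -0.42 and 0.21 with adjusted p of 0.15 or more; without pool 1 of olive oil L48060_s_at passed at -0.64 (adjusted p = 0.0244).

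The annotated promoters of Prlr are shown because this gene changed with fat, each as the 250 bases before a RefSeq start (rat build GRCr8, 5′ to 3′ on the gene's strand), for start 1 at chr2:60861515-60861764 and start 2 at chr2:60909409-60909658, both on the plus strand. Capitals mark matches to the motifs searched on both strands.
Prlr start 1: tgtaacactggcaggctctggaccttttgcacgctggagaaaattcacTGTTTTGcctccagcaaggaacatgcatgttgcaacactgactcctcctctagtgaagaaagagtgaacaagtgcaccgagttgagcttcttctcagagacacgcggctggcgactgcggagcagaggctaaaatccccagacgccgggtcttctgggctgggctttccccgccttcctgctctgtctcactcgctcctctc
Prlr start 2: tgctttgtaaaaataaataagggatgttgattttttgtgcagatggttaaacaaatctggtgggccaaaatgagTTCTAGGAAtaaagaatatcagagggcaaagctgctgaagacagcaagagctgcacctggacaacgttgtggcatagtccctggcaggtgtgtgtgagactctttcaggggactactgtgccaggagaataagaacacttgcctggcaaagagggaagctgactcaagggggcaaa
Start 2 holds TTCTAGGAA at bases -176 to -168 from the start, a match to TTCNNNGAA, the letters bound by Stat5, which 7.7% of 33469 promoters of this length hold. Start 1 holds CAAAACA on the minus strand at -202 to -196, the core of the insulin response element, which 5.5% of promoters hold. The forkhead motif GTAAACA is held by 3.2% of promoters. The nuclear receptor motif AGGTCA is held by 14.1%. The TATA box, searched as TATAAA, is held by 12.9%. None of these last 3 is among the letters of either window. A match is a description of letters and not a measured site.

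Ghr differed between the oils, and its probe sets went in opposite directions. Probe sets Z83757mRNA_at and Z83757mRNA_g_at were lower with corn than with olive oil at both fat levels, by 1.95 to 4.78-fold, while S49003_s_at was 1.41-fold higher with corn oil at 5% fat. At 70% fat 4 of the 19 probe sets of the axis passed between the oils, where 8.51% of all did, and at 5% fat 5 of 19 passed, where 19.5% of all did. The median difference was 0.32 over the 19 and 0.01 over all at 70% fat, and 0.05 over the 19 and 0.06 over all at 5% fat. The level of fat gave no call in Ghr with either oil.

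Probe set Z83757mRNA_g_at of Ghr read -0.86, -0.21 and -1.56 with 70% corn oil, against 0.21, 0.75 and 0.86 with 70% olive oil. At 5% fat it read -1.85, -1.65 and -1.14 with corn oil, against 0.92, 0.66 and 0.54 with olive oil. The 6 corn oil arrays were all below the 6 olive oil arrays, and pool 2 of 70% corn oil was the corn oil array closest to them. The corn minus olive oil difference was -1.48 ± 0.30 at 70% fat (adjusted p = 0.0112) and -2.26 ± 0.30 at 5% fat (adjusted p = 0.000416). Without pool 3 of 70% olive oil the difference at 70% fat was -1.35 (adjusted p = 0.052).

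Probe set Z83757mRNA_at of Ghr had -0.29, -0.33 and -0.60 with 70% corn oil, against 0.29, 0.74 and 0.65 with 70% olive oil. At 5% fat it had -0.69, -0.84 and -0.36 with corn oil, against 0.84, 0.63 and 0.48 with olive oil. Again no corn oil array reached an olive oil array. The differences were -0.97 ± 0.15 (adjusted p = 0.00533) at 70% fat and -1.28 ± 0.15 (adjusted p = 0.000305) at 5% fat.

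Probe set S49003_s_at of Ghr had 0.04, 0.18 and 0.32 with 70% corn oil, against -0.31, -0.08 and -0.17 with 70% olive oil. With 5% corn oil it had 0.40, 0.47 and 0.13, against -0.04, -0.22 and -0.23 with 5% olive oil. Every corn oil array was above every olive oil array, in the direction opposite to the other 2 probe sets. The differences were 0.37 ± 0.11 at 70% fat (adjusted p = 0.0649, and 0.048 without pool 3 of 5% corn oil) and 0.50 ± 0.11 at 5% fat (adjusted p = 0.00879).

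Probe sets of Ghr in which all corn oil arrays lay on 1 side of all olive oil arrays were thus 3 of 3, 1 above and 2 below, where 5.08% of all probe sets lay above and 5.62% below. Over 12 arrays S49003_s_at correlated with the others at r = -0.867 and -0.868; within the 6 olive oil arrays these were 0.95 and 0.869, and within the 6 corn oil arrays -0.975 and -0.727. At 5% fat Ghr was 1 of 54 genes with probe sets called in both directions, of 665 genes with several probe sets and a call (8.12%). As a mean over its probe sets Ghr was lower with corn oil by -0.69 ± 0.14 at 70% fat (adjusted p = 0.0164) and -1.01 ± 0.14 at 5% fat (adjusted p = 0.000797), a mean over probe sets that disagree.

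The 3'/5' index separated the same arrays by oil. In the fit with the index the corn minus olive oil differences of Z83757mRNA_g_at were -0.11 at 70% fat and -0.13 at 5% fat, those of Z83757mRNA_at -0.60 and -0.72, and those of S49003_s_at 0.22 and 0.27, with adjusted p of 0.623 or more. With the spike-in controls as covariate Z83757mRNA_g_at differed by -1.24 at 70% fat and -1.82 at 5% fat, and Z83757mRNA_at by -1.03 and -1.39. S49003_s_at differed by 0.26 at 5% fat in that fit. None of these passed (limma, adjusted p = 0.134 to 0.77). The oils do not overlap in index or spike-in controls, and the parts of index, spike-in signal and oil cannot be told apart in these arrays.

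**Figure D2:**
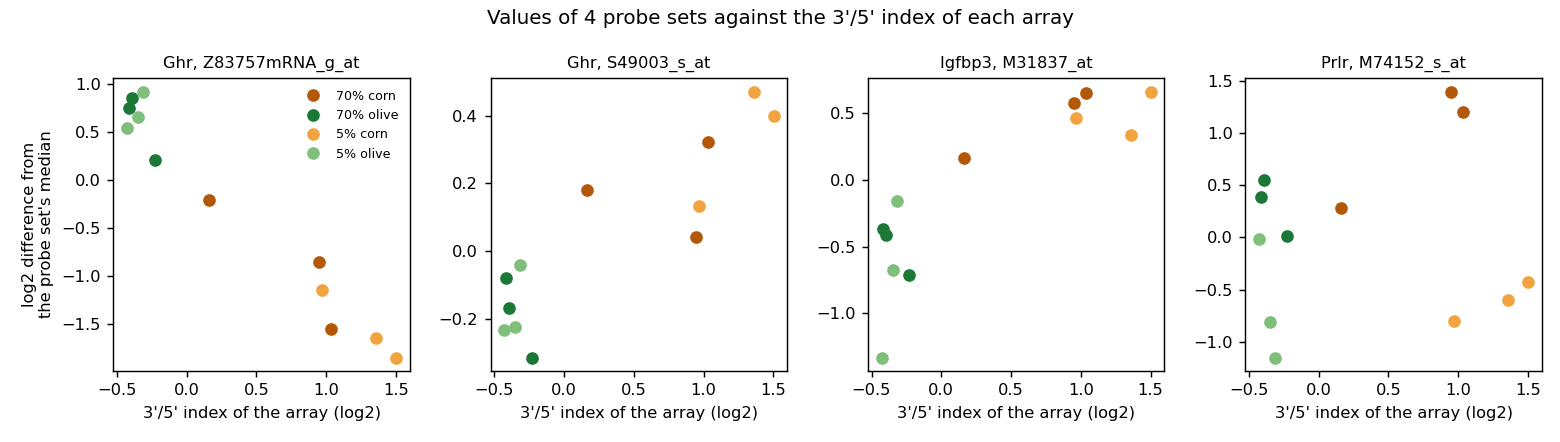
Values of 2 Ghr probe sets, Igfbp3 probe set M31837_at and Prlr probe set M74152_s_at (y axis, log2 difference from the probe set's median) against the 3'/5' index of the array (x axis, log2), 1 point per array coloured by diet. The Ghr and Igfbp3 points part by oil along the index, while the M74152_s_at points of both oils part by fat level.

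No Ghr probe set passed between the fat levels. The 70% minus 5% fat difference of Z83757mRNA_g_at was 0.67 with corn oil (95% interval 0.03 to 1.32, unadjusted p = 0.0414, adjusted p = 0.241) and -0.10 with olive oil (-0.74 to 0.54). The corn oil value was 0.34 without pool 2 of 70% corn oil, 1.02 without pool 3 of that diet and -0.06 in the fit with the index. Those of Z83757mRNA_at were 0.22 and -0.09, and those of S49003_s_at -0.15 and -0.02, with adjusted p of 0.481 or more.

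Igfbp3, the main carrier of IGF-1 in blood, was higher with corn than with olive oil. Both of its probe sets passed at 70% fat and M31837_at at 5% fat, at 1.83 to 2.31-fold. Its level did not pass between 70% and 5% fat with either oil.

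Probe set M31837_at of Igfbp3 had 0.58, 0.16 and 0.65 with 70% corn oil, against -0.71, -0.37 and -0.41 with 70% olive oil. With 5% corn oil it had 0.66, 0.33 and 0.46, against -0.16, -0.68 and -1.33 with 5% olive oil. All 6 corn oil arrays were above all 6 olive oil arrays, and the olive oil pools at 5% fat were the widest apart. The difference was 0.96 ± 0.24 at 70% fat (adjusted p = 0.0293) and 1.21 ± 0.24 at 5% fat (adjusted p = 0.00405).

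Probe set rc_AI009405_s_at of Igfbp3 had 0.67, 0.43 and 0.11 with 70% corn oil, against -0.77, -0.42 and -0.22 with 70% olive oil. At 5% fat it had 0.21, -0.04 and 0.26 with corn oil, against 0.04, -0.53 and -1.07 with olive oil, where pool 1 of olive oil lay above pool 2 of corn oil. The differences were 0.87 ± 0.24 at 70% fat (adjusted p = 0.044) and 0.66 ± 0.24 at 5% fat (adjusted p = 0.0775). The mean of both probe sets was 0.92 ± 0.22 higher with corn oil at 70% fat (adjusted p = 0.0304) and 0.93 ± 0.22 at 5% fat (adjusted p = 0.0141).

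The calls of Igfbp3 at 70% fat were close to the threshold: leaving out 1 array at a time ended the call in 5 of 12 fits for M31837_at (each 70% olive oil pool and pools 1 and 3 of 70% corn oil), with differences of 0.85 to 1.02. For rc_AI009405_s_at it ended the call in 10 of 12, all but those without pool 1 or 3 of 5% olive oil, with 0.73 to 1.02. At 5% fat rc_AI009405_s_at passed without pool 1 of olive oil, at 0.94 (adjusted p = 0.013). In the fit with the index M31837_at differed by 0.44 at 70% fat and 0.40 at 5% fat (adjusted p = 0.841 and 0.928), and rc_AI009405_s_at by 0.99 at 70% fat (adjusted p = 0.644). With the spike-in controls as covariate M31837_at differed by 0.60 and 0.57 (limma, adjusted p = 0.486 and 0.757), and rc_AI009405_s_at by 0.69 at 70% fat (adjusted p = 0.46).

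Markers of cells other than hepatocytes differed between the oils as well. Of all genes 3.42% were higher and 3.51% lower with corn oil at 70% fat, and 8.42% higher and 8.49% lower at 5% fat. An unadjusted p below 0.05 was reached by 23.6% of all probe sets at 70% fat and by 32.5% at 5% fat. Of 8 stellate cell and fibroblast markers 1 was higher with corn oil at 70% fat and 5 at 5% fat, and their mean per array lay between 0.09 and 0.23 with 70% corn oil, -0.08 and -0.04 with 70% olive oil, 0.15 and 0.40 with 5% corn oil, and -0.25 and -0.09 with 5% olive oil. Of 8 macrophage markers 2 were higher with corn oil at 70% fat, and 1 was higher and 1 lower at 5% fat; of 5 endothelial markers 0 passed at 70% fat by limma, with 1 at an unadjusted p below 0.05, and 1 was higher and 1 lower at 5% fat. Among 7 hepatocyte markers 0 passed at 70% fat, with 0 at an unadjusted p below 0.05, and 2 were lower at 5% fat. Of 3 cholangiocyte markers 0 passed at 70% fat by limma, with 2 at an unadjusted p below 0.05, and 2 were higher and 1 lower at 5% fat. Of 3 adipocyte markers 1 was higher at each fat level, Cfd, by 0.85 at 70% fat (adjusted p = 0.0187) and 0.66 at 5% fat (adjusted p = 0.0258). Col1a2, a collagen chain, was higher with corn oil by 0.52 ± 0.13 at 70% fat (adjusted p = 0.0383) and 0.80 ± 0.13 at 5% fat (adjusted p = 0.002), and Vim, an intermediate filament of mesenchymal cells, by 1.05 ± 0.17 at 5% fat (adjusted p = 0.00153). As given above, 0 of 8740 probe sets passed by limma between the oils in the fit with the index. The part of these cells in the Igfbp3 values was not tested.

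**Figure D3:**
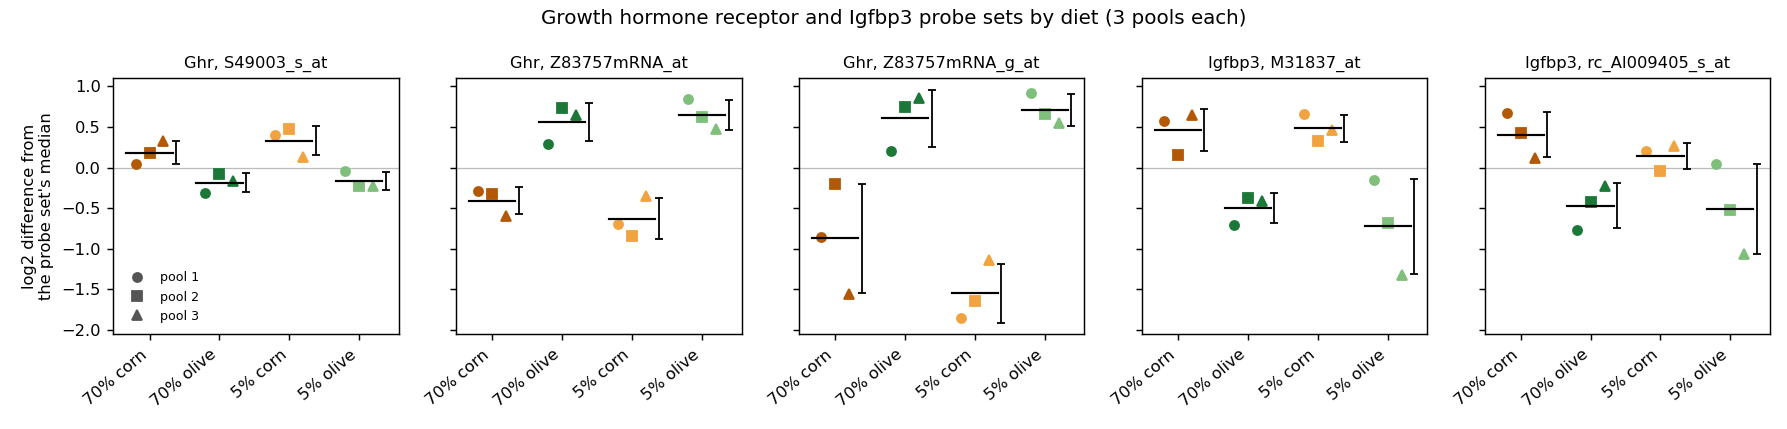
Values of the 3 Ghr and 2 Igfbp3 probe sets (y axis, log2 difference from the probe set's median) by diet, with a symbol per pool, a line at the mean and a bar of 1 SD for 3 pools. The corn oil pools sit below the olive oil pools in both Z83757 probe sets of Ghr and above them in S49003_s_at of Ghr and M31837_at of Igfbp3.

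Igf1, the hormone that liver releases in response to growth hormone, gave no call for fat level, and its 5 probe sets did not move together. Probe set M15481_at alone passed, and only between the oils at 5% fat. It had -0.11, 0.06 and -0.63 with 70% corn oil, against 0.10, 0.13 and -0.06 with 70% olive oil. At 5% fat it had -0.72, -0.59 and -0.10 with corn oil, against 0.29, 0.38 and 0.45 with olive oil, and these pools did not overlap.

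The corn minus olive oil difference of M15481_at of Igf1 was -0.84 ± 0.18 at 5% fat (adjusted p = 0.00616) and -0.28 ± 0.18 at 70% fat (adjusted p = 0.389). In the fit with the index the difference at 5% fat had the other sign, 0.29 (adjusted p = 0.909). The other 4 Igf1 probe sets differed by -0.21 to 0.36 at 5% fat, and X06107_i_at by 0.60 ± 0.20 at 70% fat (adjusted p = 0.0877). The value of 0.36 at 5% fat was that of D00698_s_at (adjusted p = 0.4), opposite in sign to M15481_at. Its pools lay between 0.18 and 0.40 with corn oil and between -0.19 and -0.02 with olive oil. It passed without pool 3 of 70% corn oil (limma, adjusted p = 0.0223) and with the arrays of these diets compared alone (adjusted p = 0.029).

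Probe sets X06107_i_at and X06107_r_at of Igf1 correlated at r = 0.895 over the 12 arrays and M15481_at and M15481_g_at at 0.683, while across these pairs r lay between -0.436 and -0.102. Pool 3 of 70% corn oil was the lowest array in D00698_s_at, at -1.14 against 0.22 and 0.21 in the other pools of its diet, and the highest in X06107_i_at at 0.58 and in X06107_r_at at 0.65. The mean of the 5 probe sets differed between 70% and 5% fat by 0.04 with corn oil (95% interval -0.24 to 0.33) and -0.10 with olive oil (-0.38 to 0.19), and between the oils by 0.12 at 70% fat (-0.17 to 0.40) and -0.03 at 5% fat (-0.31 to 0.26).

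Igfbp1, the insulin-lowered binding protein of hepatocytes, had 1 probe set, M58634_at, and the largest spread between pools of the axis. It had 0.67, -1.28 and 0.18 with 70% corn oil, against -0.18, 1.73 and 0.89 with 5% corn oil. With olive oil it had -1.21, -0.36 and -0.93 at 70% fat, against -0.91, 0.40 and 1.202 at 5% fat. The groups overlapped with either oil.

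The 70% minus 5% fat difference of Igfbp1 was -0.96 ± 0.60 with corn oil (95% interval -2.27 to 0.36, adjusted p = 0.431) and -1.06 ± 0.60 with olive oil (-2.38 to 0.25, adjusted p = 0.741). Fits without 1 array gave -1.46 (without pool 1 of 5% corn oil) to -0.39 (without pool 2 of 70% corn oil) with corn oil, and -1.63 (without pool 1 of 5% olive oil) to -0.58 (without pool 3 of 5% olive oil) with olive oil; without pool 2 of 5% corn oil the corn oil value was -0.50. The mean of both fat effects was -1.01 ± 0.43 (unadjusted p = 0.0355, adjusted p = 0.303). Its SD between pools of a diet was 0.904, larger than that of 99.8% of probe sets. Between the oils it differed by 0.69 at 70% fat (-0.63 to 2.003) and 0.58 at 5% fat (-0.73 to 1.90).

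Igfbp2, a binding protein abundant in fetal rat liver, stayed within narrow bounds. Its 3 probe sets lay between -0.27 and 0.25 on all arrays, and their 95% intervals for the 70% minus 5% fat and corn minus olive oil differences reached no further than -0.37 and 0.49. The SD between pools was 0.108 to 0.153, larger than that of 26.0% to 58.7% of probe sets. Probe set J04486_at came closest to a call, at 0.25 ± 0.11 higher with corn than with olive oil at 70% fat (adjusted p = 0.202).

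**Figure D4:**
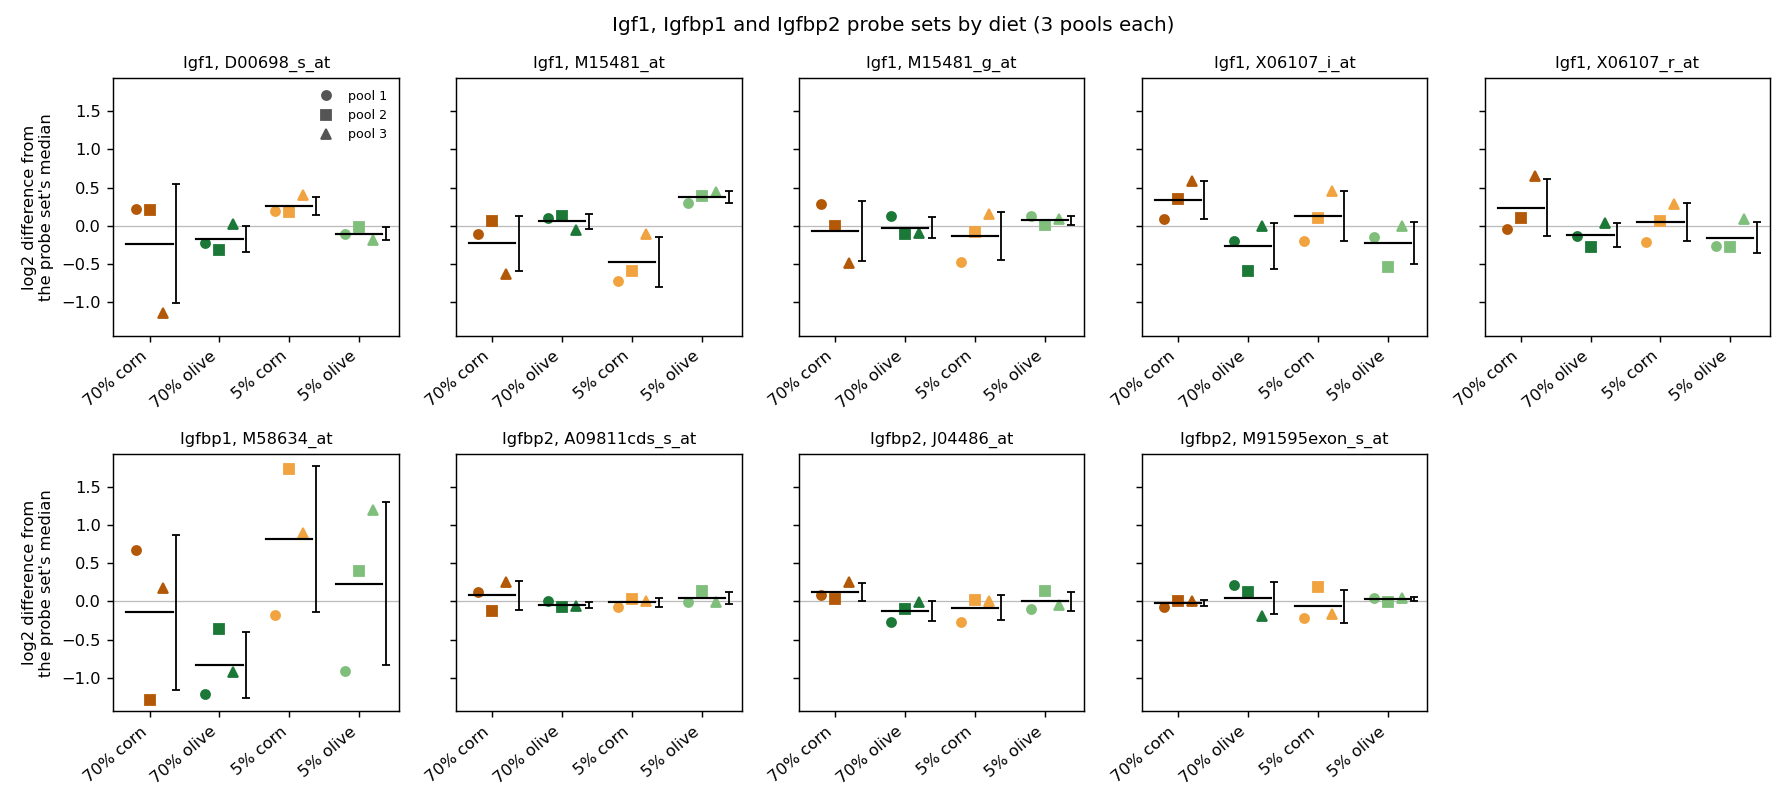
Values of the 5 Igf1 probe sets, the Igfbp1 probe set and the 3 Igfbp2 probe sets (y axis, log2 difference from the probe set's median) by diet, with a symbol per pool, a line at the mean and a bar of 1 SD for 3 pools. Igfbp1 spans -1.28 to 1.73 with overlapping diets, Igfbp2 stays between -0.27 and 0.25, and M15481_at of Igf1 is low with 5% corn oil.

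Igfbp1 and Igfbp3 are neighbours on chromosome 14 in the RefSeq annotation of GRCr8, with 0 annotated genes between them. Their values correlated at r = 0.053 over the 12 arrays, -0.18 within the 6 corn oil arrays and -0.703 within the 6 olive oil arrays. Their promoters are shown beside each other because the pair differed in how it varied, as 250 bases before the start (GRCr8, 5′ to 3′ on the gene's strand), Igfbp1 at chr14:86261027-86261276 on the plus strand and Igfbp3 at chr14:86277945-86278194 on the minus strand. Capitals mark a motif match.
Igfbp1: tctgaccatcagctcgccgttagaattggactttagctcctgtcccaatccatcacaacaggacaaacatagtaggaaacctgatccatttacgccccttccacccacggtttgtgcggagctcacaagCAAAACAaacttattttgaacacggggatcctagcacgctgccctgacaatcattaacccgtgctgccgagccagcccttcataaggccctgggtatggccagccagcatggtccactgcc
Igfbp3: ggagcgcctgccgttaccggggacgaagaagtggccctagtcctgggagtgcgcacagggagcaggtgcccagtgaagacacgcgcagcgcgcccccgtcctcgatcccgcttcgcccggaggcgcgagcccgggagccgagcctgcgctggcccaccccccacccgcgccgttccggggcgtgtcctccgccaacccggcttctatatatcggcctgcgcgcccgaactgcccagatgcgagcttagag
The Igfbp1 window holds CAAAACA at -121 to -115. The Igf1 window holds the same letters at -67 to -61. The letters of the 5 motifs were not in the Igfbp3, Igfbp2 or Ghr windows.

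**Figure D5:**
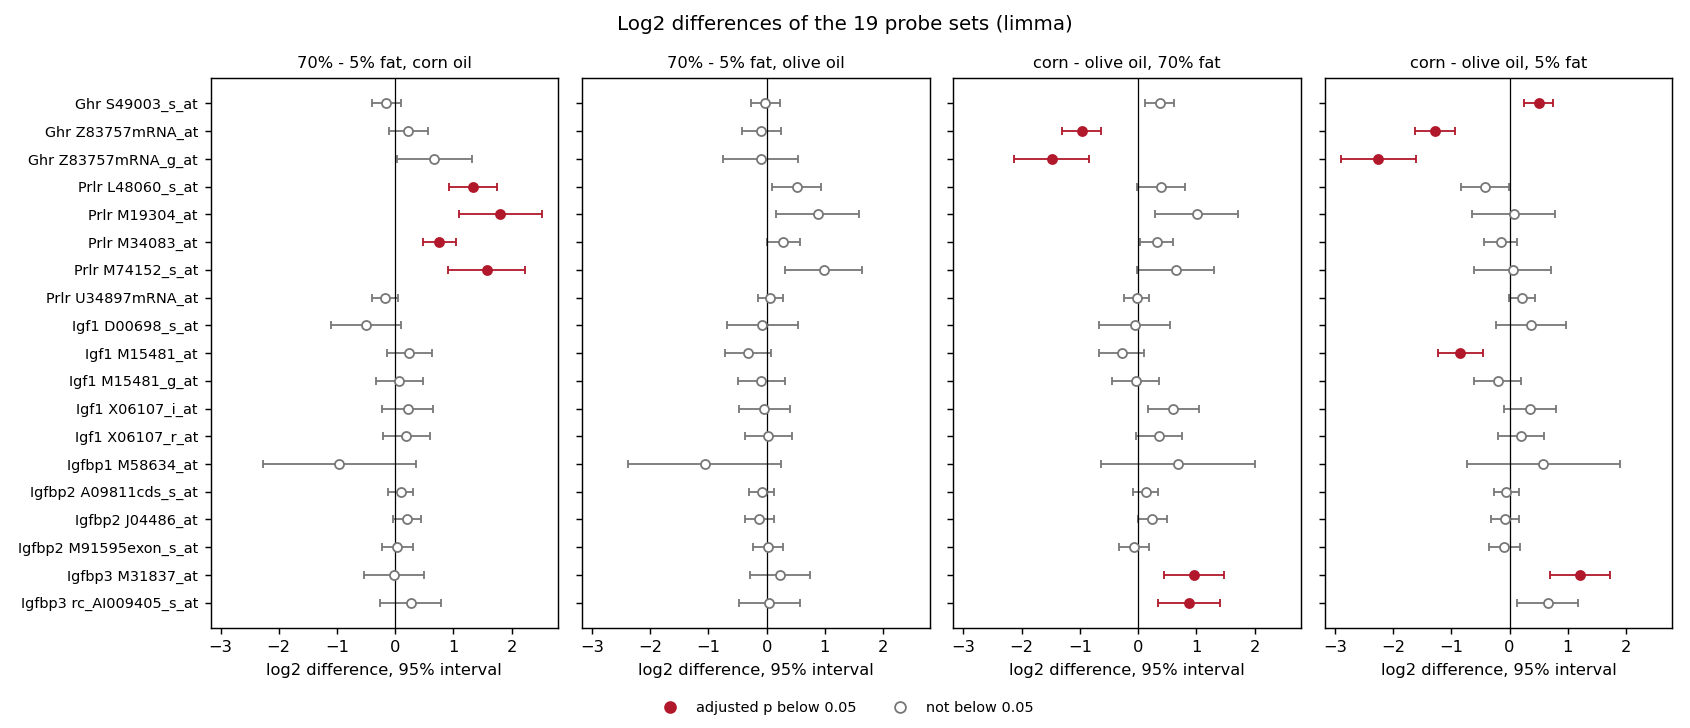
Log2 differences (x axis, with 95% intervals from limma) of the 19 probe sets (rows) in 4 comparisons, the fat effect with each oil and the oil effect at each fat level; red points passed at an adjusted p below 0.05. The red points are 4 Prlr probe sets for fat with corn oil, Ghr and Igfbp3 probe sets between the oils at 70% fat, and Ghr, Igf1 and Igfbp3 probe sets between the oils at 5% fat.

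Genes that carry the growth hormone signal inside the cell were compared between the fat levels as well. Of 15 measured genes of growth hormone receptor signalling 1 passed between 70% and 5% corn oil, where 2.53% of all genes did, with 1.52% of all higher and 1.01% lower: Cish, a feedback inhibitor induced by Stat5, was 0.47 ± 0.11 higher (adjusted p = 0.043). In that comparison 3 of the 15 had an unadjusted p below 0.05, as did 18.8% of all probe sets. Cish was 0.46 higher in the fit with the index and did not pass there (limma, adjusted p = 0.208). With olive oil 0 of the 15 passed by limma, where 0.549% of genes passed. An unadjusted p below 0.05 was reached by 1 of them, Stat5b at 0.25 ± 0.11 (adjusted p = 0.543), and by 8.46% of all probe sets. The median of the list was -0.0038 with corn oil, against -0.0019 over all genes.

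Between the oils, 2 of these 15 genes passed at each fat level, 1 higher and 1 lower. Of all genes 6.93% passed at 70% fat and 16.9% at 5% fat. Cish was lower with corn oil, by -0.40 ± 0.11 at 70% fat (adjusted p = 0.0456) and -0.81 ± 0.11 at 5% fat (adjusted p = 0.000546). Ptpn6, a phosphatase that dampens Jak-Stat signals and is abundant in blood cells, was higher with corn oil by 0.46 ± 0.07 (adjusted p = 0.00768) and 0.56 ± 0.07 (adjusted p = 0.000518).

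In the list of the IGF and insulin system 0 of 18 measured genes passed for fat level with either oil by limma. An unadjusted p below 0.05 was reached by 5 with corn oil, against 18.8% of all probe sets. With olive oil 2 reached it, against 8.46% of all probe sets. Between the oils 2 were lower with corn oil at 70% fat, where 3.51% of all genes were lower. At 5% fat 4 were lower and 1 higher, where 8.49% of all genes were lower and 8.42% higher. Ide, a protease that degrades insulin, was lower with corn oil by -0.62 ± 0.10 (adjusted p = 0.008) and -0.74 ± 0.10 (adjusted p = 0.000696). Insr, the insulin receptor, differed by -0.37 ± 0.11 at 5% fat (adjusted p = 0.0311), and the kinases Akt1 and Akt2 downstream of it by -0.34 ± 0.08 and -0.58 ± 0.11 (adjusted p = 0.0177 and 0.00479).

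Male and female rats secrete growth hormone in different patterns, which set sex-dependent genes of the liver. Of the 6 measured, 1 passed between the oils at 70% fat, where 6.93% of all genes did, and 3 at 5% fat, where 16.9% did. At 5% fat the male-specific Cyp2c11 was lower with corn oil, -1.27 ± 0.34 (adjusted p = 0.0244), the female-specific Cyp2c12 was higher, 1.85 ± 0.44 (adjusted p = 0.0135), and the male-predominant Cyp3a2 was higher, 0.60 ± 0.17 (adjusted p = 0.0286). At 70% fat Cyp2c11 was lower by -1.56 ± 0.34 (adjusted p = 0.0217). For fat level 0 of the 6 measured genes of this list passed by limma. An unadjusted p below 0.05 was reached by 2 with corn oil, against 18.8% of all probe sets. With olive oil 1 reached it, against 8.46% of all probe sets. Cyp2c12 differed by -1.58 ± 0.44 with corn oil (adjusted p = 0.0803). Members of the Cyp2c family are close in sequence and their probe sets may share signal.

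Of 5 measured insulin- and glucocorticoid-regulated liver genes, Pfkfb1, the kinase and phosphatase that sets fructose 2,6-bisphosphate, fell by 0.57 ± 0.13 at 70% fat with corn oil (adjusted p = 0.0377). It was the only one of them to pass in that comparison, where 2.53% of all genes did. With olive oil it differed by -0.56 ± 0.13 (adjusted p = 0.105), and in the mean of both fat effects it fell by 0.57 ± 0.09 (adjusted p = 0.005), a call kept in all 12 fits without 1 array and in the fit with the index (-0.59, adjusted p = 0.0163). Its fat effect with corn oil was -0.63 in the fit with the index and did not pass there (limma, adjusted p = 0.169). Nr3c1, the glucocorticoid receptor, was higher with corn than with olive oil by 0.29 ± 0.07 at 70% fat (adjusted p = 0.0341) and 0.41 ± 0.07 at 5% fat (adjusted p = 0.00226), and Srebf1, a lipogenic factor that insulin raises, was lower at 5% fat, -0.95 ± 0.24 (adjusted p = 0.0195).

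Of 7 measured transcription factors that regulate these genes in hepatocytes 0 passed for fat level by limma. An unadjusted p below 0.05 was reached by 0 with corn oil, against 18.8% of all probe sets. With olive oil 2 reached it, against 8.46% of all probe sets. Between the oils 2 were lower with corn oil at 70% fat, where 3.51% of all genes were lower, and 3 at 5% fat, where 8.49% were. Hif1a, the hypoxia factor, was lower with corn oil by -0.70 ± 0.09 (adjusted p = 0.00346) at 70% fat and -0.90 ± 0.09 (adjusted p = 0.000197) at 5% fat. Cebpa was lower by -0.42 ± 0.10 (adjusted p = 0.0267) and -0.44 ± 0.10 (adjusted p = 0.0103), and Hnf4a by -0.44 ± 0.11 at 5% fat (adjusted p = 0.0169). Leaving out 1 array at a time ended the calls for fat with corn oil of Cish in 9 and of Pfkfb1 in 8 of 12 fits. Between the oils at 70% fat it ended those of Cish in 10, Akt2 in 9, Nr3c1 in 8, Cyp2c11 in 5 and Cebpa in 5 fits. At 5% fat it ended those of Insr in 5, Akt1, Cyp2c11 and Cyp3a2 in 4 each, Srebf1 and Hnf4a in 3 each and Cyp2c12 in 2 fits, and in the fit with the index none of these genes passed between the oils.

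Genes whose values over the 12 arrays were most like those of each member, by Pearson's r on 1 value per gene, are given as a description, since all share the arrays and the oil difference. For Prlr these were Copz2, Slc27a2 and Aldh1a1, with r = 0.903, 0.895 and 0.883 over all arrays, 0.94, 0.918 and 0.968 within the 6 corn oil arrays, against 0.862, 0.862 and 0.687 within the 6 olive oil arrays. Ghr was closest to Vdac1, Gdi2 and Aldh6a1 (r = 0.987, 0.984 and 0.979), and Igfbp3 to Kcnk5, Phax and Gucy1a1 (0.954, 0.943 and 0.92). Within the corn oil arrays those of Ghr were 0.989, 0.98 and 0.963 and those of Igfbp3 0.831, 0.395 and 0.037, against 0.935, 0.905 and 0.685 for Ghr and 0.856, 0.875 and 0.841 for Igfbp3 within the olive oil arrays. Igfbp1 was closest to Gas5, Plrg1 and Egr1 (0.89, 0.87 and 0.87), Igf1 to C1qbp, Vezf1 and Macroh2a1 (0.799, 0.793 and 0.765), and Igfbp2 to Slc25a17, Pdpk1 and Zfand6 (0.863, 0.859 and 0.829). Within 1 oil these 9 values lay between 0.808 and 0.994 in the corn oil arrays and between 0.388 (Igf1 with C1qbp) and 0.942 in the olive oil arrays. The values of Ghr and Igf1 used here are means over probe sets that disagree, and the likeness of each probe set was not examined. The mean of Prlr includes U34897mRNA_at. The 2 Igfbp3 probe sets correlated at r = 0.903 over the 12 arrays, -0.01 within the corn oil arrays and 0.944 within the olive oil arrays. M91595exon_s_at of Igfbp2 correlated with the other Igfbp2 probe sets at 0.089 and -0.09 over the 12 arrays.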

How the data were processed

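RNA pools of rat liver were hybridised to 12 single-colour Affymetrix arrays, from 8 ug of total RNA per the labels' protocols. The deposited table holds log2 expression of 8799 probe sets, and GCOS and RMA are named in the submitters' processing notes. It does not state the log base, which was taken as 2. Within a tolerance of 1e-06, 100% of probe sets have a median of 0 across arrays. Such values do not show signal over background; precision is limited by the number of arrays. There were 0 columns of other samples.

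After 59 controls were left out, 8740 probe sets were tested with limma 3.58.1 in R 4.3.3 on all 12 arrays (8 residual degrees of freedom, eBayes). P-values are two-sided and adjusted by Benjamini-Hochberg within a comparison. Of these probe sets 7006 had 1 symbol, 308 several and 1426 none, which gave 4736 genes; probe sets of 1 gene were averaged. Markers were judged in the same way. The members, the lists and the rule for named genes (all members, up to 4 called genes per list and comparison or the 2 smallest p-values, 3 most alike genes; the text names a part) were chosen with earlier results of these data known. The code was tested on simulated data. Promoters are from RefSeq (GRCr8; 6 of 6 genes matched, 7 starts). Same-numbered pools of different diets did not deviate together: 1 of 12 pairs had r above 0.1. Alternatives were another normalization, centring, moderation, array weights, covariates, a block, gene averages, a minimum change of 1.5-fold and fits without single arrays.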

Additional observations from a re-analysis of the deposited data

How the results depend on the processing

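Of 17 called differences of the axis, 0 kept their call under every alternative, and 8 of 97 others gained one in at least 1. Of 2242 re-estimated differences 137 had another sign, among called ones only M15481_at of Igf1. With the RNA quality index as covariate the calls of the axis went to 0 between the oils at both fat levels, and all calls to 0 there, 40 for fat with corn oil, 64 with olive oil and 123 in the mean. In that fit M15481_at turned to 0.29, Akt2 to 0.0549 at 70% and 0.17 at 5% fat, Cyp2c11 to 1.07, Hnf4a to 0.22 and Cebpa to 0.0501 at 5% fat; the cause was not tested. With the spike-in controls as a covariate, added after seeing the data, calls of the axis were 0 for fat with corn oil, in the mean and between the oils, and all calls 2, 16 and 17 for fat (corn, olive, mean) and 3 and 0 between the oils at 70% and 5% fat.

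A second quantile normalization left 51 calls for fat with corn oil, 0 of them of the axis, and 98 with olive oil. Trend and robust moderation left 2 of the axis for fat with corn oil. The arrays of the diets compared alone gave 53 calls (2 of the axis), 97 and 334 for fat with corn oil, with olive oil and between the oils at 70% fat. Centring gave 22 for fat with olive oil. Array weights gave 138 there (1 of the axis), 2632 between the oils at 5% fat and 2 for the difference between the fat effects. With the pool number as a replicate block, that test gave 1 call; X06107_i_at of Igf1 gained a call between the oils at 70% fat (adjusted p = 0.0333) and rc_AI009405_s_at of Igfbp3 lost one (0.0572). With 1 value per gene, fewer features give 120 calls for fat with corn oil, 328 and 801 between the oils and 103 in the mean, with 1, 2, 2 and 1 of the axis. A 1.5-fold minimum left 370, 886 and 109. Leaving out 1 array at a time gave 59 to 348 calls for fat with corn oil (2 to 4 of the axis), 10 to 69 with olive oil (0 to 0), 311 to 1162 between the oils at 70% fat (1 to 5), 1115 to 2065 at 5% fat (5 to 7), 0 to 10 for the difference between the fat effects (0 to 0) and 116 to 233 in the mean (4 to 4). A filter on dim probe sets was not run, since centred values hold no level.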
